A study of Mus musculus with 36 samples.

Results

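A set of 5 genes of the mouse X chromosome that encode chromatin regulators, Bcor, Hdac8, Stag2, Phf6 and Phf8, were followed through 24 H2AK119ub1 chromatin libraries in which Xist was switched on or left off. Each gene was represented by the 250 kb window that holds its midpoint, which gave 5 windows of the 669 analysed on X. Bcor, Stag2, Phf6 and Hdac8 lie before the end of the allele-specific files, so the signal of each allele was available in 4 windows of 353. Phf8 lies past that end and was read from the signal of all reads. The cells were female mouse embryonic stem cells of a 129S x Cast hybrid, native chromatin was digested with micrococcal nuclease, and in every group the Xist promoter of the 129S allele was replaced by a doxycycline-inducible one. The genotypes were clones with a deletion of the RRM domain of Spen (called Spen clones here), clones mutated in the SPOC domain of the same protein (SPOC clones) and the unmutated parental line (WT). Doxycycline was given at 1 µg/mL for 3 h or 24 h. The 24 h series held 2 induced and 2 uninduced libraries of Spen clones C3 and D4, 2 and 2 of SPOC clones E7 and H1, and 3 and 3 of WT. The 3 h series held 2 and 2 of Spen clones C3 and C4, 2 and 2 of SPOC clones C11 and H1, and 1 and 1 of WT. All Spen clones are labelled as RRM deletions, C3 and D4 with a spurious truncated product and C4 as a full knockout. Feeder fibroblasts were removed by pre-plating. Each clone is a cell line of its own, and 12 input libraries came from the 24 h series.

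Xist is the long noncoding RNA that coats an X chromosome in cis and starts its silencing, and Polycomb repressive complex 1, which places the H2AK119ub1 mark, a ubiquitin on histone H2A, is recruited along with it. Spen binds Xist through its RNA recognition motifs and brings in silencing partners through its SPOC domain. The members act on chromatin in different ways. Bcor is a corepressor subunit of a variant Polycomb complex that itself places H2AK119ub1, Hdac8 is a deacetylase that acts on the cohesin subunit Smc3, and Stag2 is a cohesin subunit. Phf6 is a PHD-like zinc finger protein of the nucleolus and chromatin, and Phf8 is a histone demethylase with a PHD finger. The windows describe the mark over these genes, not their transcription, which was not measured.

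On mm10, Bcor (X:12036737-12160516) is the only protein-coding gene with its midpoint in the window X:12000001-12250000, and Hdac8 (X:102284638-102505381) is the only one in X:102250001-102500000, of which 97.6% of the gene's length lies inside. Stag2 (X:42149297-42277186) shares X:42000001-42250000 with Xiap, an inhibitor of apoptosis, and 78.7% of the gene lies inside. Phf6 (X:52912214-52956961) shares X:52750001-53000000 with Ccdc160. Phf8 (X:151520641-151633859) is alone in X:151500001-151750000. Each value below belongs to a whole window, introns and flanking intergenic sequence included, and cannot be assigned to a promoter or an exon.

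Variant Polycomb complexes with Bcor are known to be directed to unmethylated CpG islands, so the 250 bases before a transcript start listed in the RefSeq promoter table (GRCm38.p6) are shown for the 3 members found there, 5′ to 3′ on the strand of the gene, with every CG in capitals. For Bcor, the upstream-most of 2 entries is shown (chrX:12160356-12160605, minus strand). For Phf8 it is chrX:151520422-151520671 (plus strand) and for Hdac8 chrX:102505159-102505408 (minus strand).
Bcor: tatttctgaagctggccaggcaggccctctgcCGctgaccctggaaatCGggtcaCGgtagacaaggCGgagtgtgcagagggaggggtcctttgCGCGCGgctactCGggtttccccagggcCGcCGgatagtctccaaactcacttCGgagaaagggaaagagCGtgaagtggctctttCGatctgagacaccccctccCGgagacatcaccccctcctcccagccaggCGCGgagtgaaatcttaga
Phf8: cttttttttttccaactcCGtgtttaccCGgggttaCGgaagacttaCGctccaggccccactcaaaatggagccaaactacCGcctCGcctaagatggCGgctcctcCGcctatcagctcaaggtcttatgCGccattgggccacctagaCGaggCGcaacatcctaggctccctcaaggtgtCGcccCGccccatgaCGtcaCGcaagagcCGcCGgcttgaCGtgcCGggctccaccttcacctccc
Hdac8: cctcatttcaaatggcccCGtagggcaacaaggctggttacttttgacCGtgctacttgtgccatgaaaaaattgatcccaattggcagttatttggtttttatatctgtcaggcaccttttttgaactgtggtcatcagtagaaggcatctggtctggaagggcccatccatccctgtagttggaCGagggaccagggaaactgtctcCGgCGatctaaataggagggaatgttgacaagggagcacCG
These starts are not the outermost ones, so each stretch lies partly inside the gene span given above. The Bcor stretch holds 16 CG, the Phf8 stretch 19 and the Hdac8 stretch 6. The motif searched was CG, which reads the same on both strands. Among 817 promoters of X in the table the median was 6, 90.0% held at least 1, and 17.6% held as many as Bcor, 10.8% as many as Phf8 and 52.0% as many as Hdac8. The mark was measured over 250 kb and not at these stretches.

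The deposited unit is a normalized signal with an unstated scaling factor, and neither read numbers nor the strain behind genome 1 and genome 2 are given, so the depth of each value is unknown. The sum over X was between 116006 and 277241 for the H2AK119ub1 libraries, and between 177468 and 189684 for inputs. In the 24 h series the genotypes, and each WT replicate, were handled on separate occasions, so genotype and occasion cannot be told apart there. All 3 h libraries were handled on 1 day. For the 4 SPOC libraries of the 24 h series the titles and the names of the files give opposite states. States follow the file names here, written as filed as induced or filed as uninduced, and every SPOC change at 24 h turns round if the titles hold. By the titles, 83.3% of allelic windows had a lower ratio after induction in SPOC clones, 94.3% were lower in SPOC minus WT, and 90.1% were higher in Spen minus SPOC. After centring each library, described below, those shares were 32.6% higher and 32.3% lower in SPOC minus WT, and 32.9% higher and 30.0% lower in Spen minus SPOC. By total signal 94.3% were lower in SPOC minus WT and 87.9% higher in Spen minus SPOC. Changes are induced minus uninduced on a log2 scale, tested with limma over all windows with Benjamini-Hochberg adjustment at 0.05. The 3 h series has 1 WT library per state, which the fit assumes to vary like the clones.

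In WT cells after 24 h, the ratio of genome 2 to genome 1 signal rose in all 4 allelic member windows, beside 94.6% of all 353 windows. In Spen clones it rose in 1 of 4, Hdac8, beside 70.8% of all windows. In SPOC clones it rose in 3 of 4 (Hdac8, Phf6 and Stag2), beside 83.3%. The total signal rose in 4 of 5 members in WT (94.8% of 669 windows), in Hdac8 alone in Spen clones (68.5%, a call lost when libraries were centred on their median window, 0.07 with adjusted p = 0.377) and in 4 of 5 in SPOC libraries filed as induced (79.1%). Bcor was the member whose total signal passed the test in no genotype. Against WT, the Spen change was lower in Stag2 and Phf6 by the ratio (23.5% of windows were lower and 3.4% higher) and in Stag2, Phf6, Hdac8 and Phf8 by the total signal (34.7% were lower and 0.897% higher). By the ratio, limma called 0 of 4 members for Spen minus SPOC, with 1 at an unadjusted p under 0.05, Phf6 at -0.67 ± 0.24 (adjusted p = 0.0669, and 0.00764 without WT replicate 3), where 6.52% of windows were lower and 2.27% higher.

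**Figure D1:**
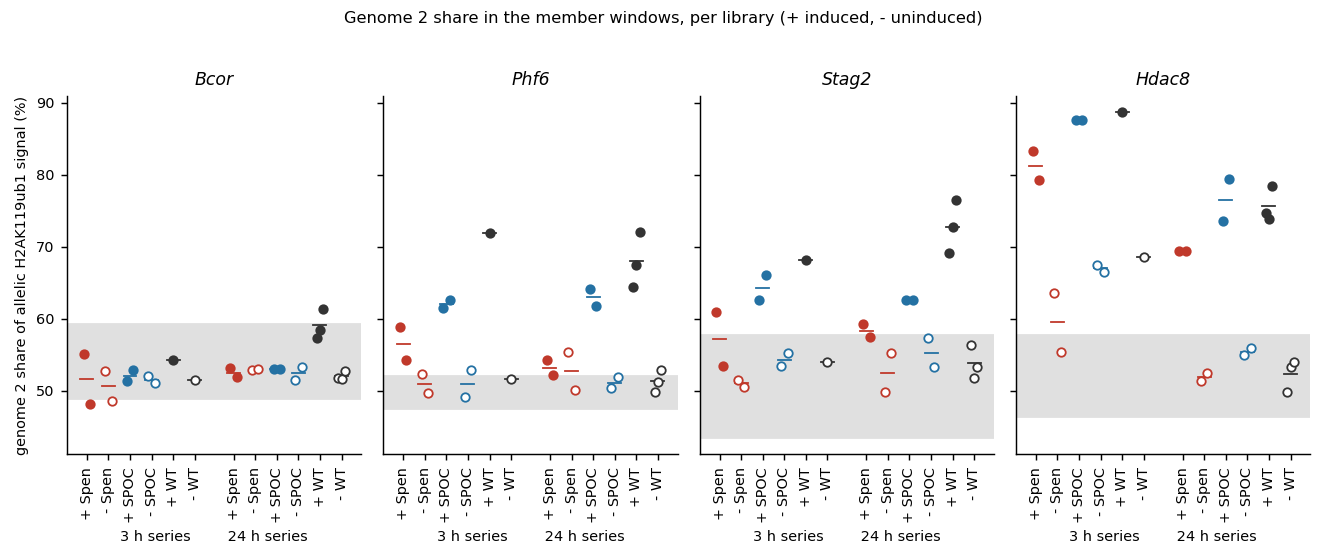
Share of genome 2 in the allelic H2AK119ub1 signal (percent) of the 4 member windows, 1 point per library, with induced (+, filled) left of uninduced (-, open) and lines at group means. Grey bands span the 12 inputs, and SPOC states of the 24 h series follow the file names. In WT at 24 h the induced libraries stand above the uninduced ones in every panel, from 57.3% at Bcor to 78.5% at Hdac8.

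Bcor carried the most H2AK119ub1 before induction. Its total signal was 812.3 and 801.1 in uninduced Spen clones C3 and D4, 843.4 and 749.1 in the SPOC libraries of E7 and H1 filed as uninduced, and 788.2, 817.4 and 824.6 in uninduced WT replicates of the 24 h series. That was rank 1 of 669 windows in each of the 12 uninduced libraries of both series, at 3.68 to 4.97 times the median window. In the 24 h series, the 6 uninduced libraries with an input stood at 2.68 to 2.97 times the input's value for the window, both as scaled by the authors. Phf8 and Stag2, by the same measure, stood at 0.688 to 0.735 and at 0.771 to 0.838 times their input. The ranks were read after the values were known and were not tested.

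The total signal of Bcor as deposited did not pass the test in any genotype, a result that depends on the scale. It was 782.2, 761.8 and 920.6 in induced WT replicates, against the uninduced values above, and 814.1 and 832.4 in induced Spen clones. The SPOC libraries filed as induced had 826.6 and 733.4. The groups overlapped in WT and SPOC. The log2 change was 0.02 ± 0.09 (SE) in WT (95% interval -0.15 to 0.19, adjusted p = 0.84 in limma), while the median change of all windows in WT was 0.68. In Spen clones it was 0.03 ± 0.11, and in SPOC clones -0.03 ± 0.11. Centred on the median window of each library, the Bcor total fell in all 3 genotypes, with -0.51 in Spen clones (adjusted p = 0.000281), -0.62 in SPOC clones (9.9e-05) and -0.72 in WT (3.7e-06). Averaged with its neighbours, the window rose by 0.25 in WT (adjusted p = 0.00567). With 1 exception, rank 1 in Spen clone C3, the rank of Bcor was below first in the induced libraries, from 2 to 48.

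The alleles of Bcor parted nonetheless in WT. Genome 2 held 57.3%, 58.5% and 61.4% of the allelic signal in induced WT replicates, against 51.7%, 51.6% and 52.7% in uninduced ones, and the groups did not overlap, as in 94.9% of windows. The induced shares of 57.3% and 58.5% lay inside the range of the 12 inputs at Bcor, 48.8% to 59.2%. Genome 2 signal was 210.6, 214.5 and 262.3 in induced replicates and 188.4, 190.3 and 196.8 in uninduced ones. Genome 1 signal was 156.8, 152.4 and 164.9 in induced replicates and 175.9, 178.2 and 176.6 in uninduced ones, so genome 1 stood lower in each induced library. The single-allele values were not tested. The ratio rose by 0.41 ± 0.14 (adjusted p = 0.00351), which placed Bcor at position 323 of 353 windows from the highest. With inputs subtracted, which leaves out WT replicate 3, it was 0.29 and lost the call (adjusted p = 0.154).

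In neither mutant did the ratio at Bcor pass the test. Genome 2 held 53.1% and 51.8% in induced Spen clones and 52.9% and 53.0% in uninduced ones. It held 53.0% and 53.0% in SPOC libraries filed as induced and 51.5% and 53.3% in those filed as uninduced. The changes were -0.03 ± 0.17 in Spen clones and 0.04 ± 0.17 in SPOC clones. The Spen minus WT difference of -0.44 ± 0.22 did not pass the test (95% interval -0.87 to -0.01, adjusted p = 0.137), and without WT replicate 3 it was -0.39 and passed (adjusted p = 0.0232). The SPOC minus WT difference was -0.38 ± 0.22 (adjusted p = 0.425). At 3 h, genome 2 held 54.3% in the induced WT library against 51.5% in the uninduced one, and no change of the Bcor ratio passed the test. The total at 3 h was 661.2 and 694.0 in induced SPOC clones and 759.2 and 835.9 in uninduced ones, a change of -0.23 ± 0.22 that passed with the replicate block (adjusted p = 0.00896). The 12 inputs ranged from 48.8% to 59.2% at Bcor.

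**Figure D2:**
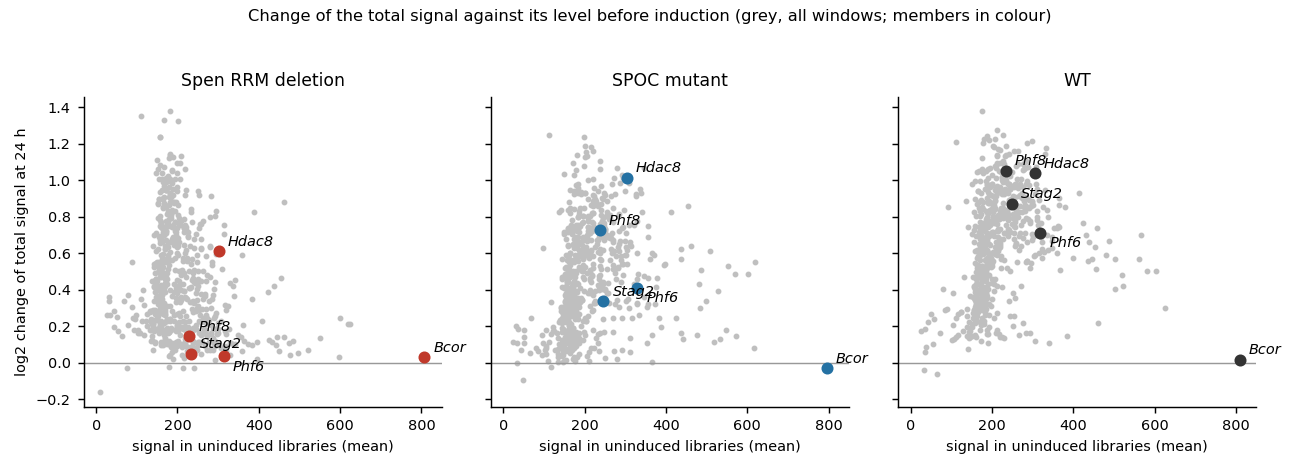
Log2 change of the total signal after 24 h (y axis) against the mean signal of the uninduced libraries in the deposited unit (x axis), for every window (grey) and the 5 members (colour), by genotype, with SPOC states from the file names. Bcor stands farthest to the right in each panel at a change near 0, and Phf8, at 1.05 in WT and 0.15 in Spen clones, differs most between those panels.

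Hdac8 is the member closest to Xist. The fourth window beyond it is the last of the allelic files. Its allelic shift was the largest of the members in each genotype and series. Genome 2 held 69.4% and 69.4% in induced Spen clones at 24 h, against 51.3% and 52.4% in uninduced ones. It held 73.6% and 79.4% in SPOC libraries filed as induced, against 55.0% and 55.9% in those filed as uninduced. In WT replicates it held 74.8%, 73.9% and 78.5% with induction and 49.8%, 53.2% and 54.0% without. The groups did not overlap in any genotype, as in 91.5% of windows in Spen clones, 93.8% in SPOC clones and 94.9% in WT. The change was 1.07 ± 0.17 in Spen clones (adjusted p = 1.81e-08), 1.40 ± 0.17 in SPOC clones (adjusted p = 2.55e-12) and 1.51 ± 0.14 in WT (adjusted p = 3.57e-19).

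The shift at Hdac8 lay on genome 2. Genome 2 signal was 120.8 and 133.0 in induced Spen clones and 61.7 and 60.9 in uninduced ones, while genome 1 signal was 53.3 and 58.7 with induction and 58.5 and 55.3 without. In WT replicates, genome 2 signal was 174.0, 185.5 and 226.3 with induction and 59.6, 62.1 and 71.8 without. Genome 1 signal there was 58.7, 65.7 and 61.9 with induction and 60.2, 54.5 and 61.1 without, and the groups overlapped. The difference between genotypes in the ratio did not pass the test, at -0.44 ± 0.22 for Spen minus WT (95% interval -0.88 to 0.01, adjusted p = 0.147) and -0.11 ± 0.22 for SPOC minus WT (-0.55 to 0.33).

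By total signal the Spen clones did fall short of WT at Hdac8. The total was 439.1 and 484.6 in induced Spen clones and 306.0 and 297.6 in uninduced ones. It was 572.9 and 656.5 in SPOC libraries filed as induced, and 304.4 and 301.2 in those filed as uninduced. In WT it was 586.2, 606.0 and 703.4 with induction and 304.6, 290.2 and 323.7 without. The Spen minus WT difference was -0.43 ± 0.14 (adjusted p = 0.00783), and it lost the call without Spen clone C3 (-0.34, adjusted p = 0.171). Spen minus SPOC was -0.40 ± 0.15 (adjusted p = 0.0698), and passed with the replicate block (adjusted p = 0.00346), as it did without WT replicate 3 (adjusted p = 0.0234).

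At 3 h Hdac8 stood higher still, with a skew that was there before induction. Genome 2 held 83.3% and 79.2% in induced Spen clones C3 and C4, against 63.6% and 55.4% in uninduced ones. It held 87.6% and 87.6% in induced SPOC clones, against 67.5% and 66.6% in uninduced ones, and 88.8% in the induced WT library against 68.6% in the uninduced one. Every uninduced 3 h library except Spen clone C4 (55.4%) lay above the 12 inputs, which ranged from 46.3% to 57.8%, and the inputs come from the 24 h series. In the 24 h series the uninduced libraries ran from 49.8% to 55.9%. The changes at 3 h were 1.56 ± 0.21 in Spen clones, 1.79 ± 0.21 in SPOC clones and 1.85 ± 0.29 in WT, with the adjusted p at most 2.55e-09. The total signal at 3 h was 723.0 and 692.7 in induced Spen clones, 760.0 and 1083.1 in induced SPOC clones and 1317.5 in the induced WT library. The 2 series were handled apart, so time and series cannot be told apart.

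Stag2 has little allelic signal, at most 17.7 on genome 1 and 54.1 on genome 2, against at least 133.7 and 155.0 at Bcor, and a share of small signals is the less precise. In WT replicates genome 2 held 69.1%, 72.7% and 76.6% with 24 h of induction and 56.4%, 51.7% and 53.3% without. In Spen clones it held 59.2% and 57.4% with induction and 49.8% and 55.2% without. It held 62.6% and 62.5% in SPOC libraries filed as induced, and 57.3% and 53.3% in those filed as uninduced. No group of induced libraries overlapped its uninduced one, as in 91.5% of windows in Spen clones, 93.8% in SPOC clones and 94.9% in WT. The 12 inputs at Stag2 ranged from 43.4% to 57.8%, and induced Spen clone D4 (57.4%) lay inside that range. The rise was 1.20 ± 0.14 in WT (limma, adjusted p = 4.45e-14), with 0.79, 1.30 and 1.51 in the 3 pairs. Its SE comes from a spread limma pools over windows, and does not carry the lower precision of Stag2. In Spen clones the rise was 0.35 ± 0.17 (adjusted p = 0.0609), with 0.55 in C3 and 0.15 in D4. That rise passed without WT replicate 3 (adjusted p = 0.0209). In SPOC clones the rise was 0.44 ± 0.17 (adjusted p = 0.016), which did not pass without clone E7 (0.55) or without H1 (0.33).

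In the main fit both mutants fell short of WT at Stag2. By the ratio, SPOC minus WT lost its limma call without the filter on low windows (adjusted p = 0.0937). It was lost too over the windows the gene touches (0.0661) and with neighbours averaged (0.0826). With inputs subtracted and WT replicate 3 left out, SPOC minus WT (0.689) and Spen minus WT (0.253) both lost the call. The Spen minus WT difference was -0.85 ± 0.22 (adjusted p = 0.00153), and without Spen clone D4 it was -0.65 and lost the call (adjusted p = 0.151). The SPOC minus WT difference was -0.76 ± 0.22 (adjusted p = 0.0334), among 5.1% of windows called lower. It lost the call without SPOC clone E7 (-0.65, adjusted p = 0.531), SPOC clone H1 (-0.87, 0.171), WT replicate 2 (-0.71, 0.108) or WT replicate 3 (-0.61, 0.0705). The total signal gave -0.82 ± 0.14 for Spen minus WT (adjusted p = 7.81e-08) and -0.53 ± 0.14 for SPOC minus WT (adjusted p = 0.0044, and 0.105 at -0.45 without SPOC clone E7), in a comparison where 4.78% of windows were lower. That total was 238.7 and 244.6 in induced Spen clones and 235.6 and 232.4 in uninduced ones. It was 292.4 and 330.5 in SPOC libraries filed as induced and 244.6 and 247.5 in those filed as uninduced. In WT it was 429.0, 444.4 and 496.5 with induction and 254.0, 247.2 and 244.7 without. Spen minus SPOC was -0.29 ± 0.15 (adjusted p = 0.231, and 0.045 with the replicate block). Stag2 and Hdac8 both reach into the next window, where the Spen change was -0.06 ± 0.18 for the end of Stag2 and 1.26 ± 0.17 for the start of Hdac8.

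Phf6 moved in WT and SPOC clones, and its Spen change did not pass the test. Genome 2 held 54.2% and 52.2% in induced Spen clones against 55.3% and 50.1% in uninduced ones, and the groups overlapped. It held 64.2% and 61.8% in SPOC libraries filed as induced against 50.3% and 51.9% in those filed as uninduced. In WT it held 64.4%, 67.5% and 72.1% with induction and 49.8%, 51.3% and 52.9% without. The changes were 0.03 ± 0.17 in Spen clones (95% interval -0.31 to 0.37), 0.70 ± 0.17 in SPOC clones (adjusted p = 0.000147) and 1.01 ± 0.14 in WT (adjusted p = 4.79e-11). The Spen minus WT difference was -0.98 ± 0.22 (adjusted p = 0.000234), and it kept its call without any single replicate. SPOC minus WT was -0.31 ± 0.22 (95% interval -0.75 to 0.13, adjusted p = 0.588). Spen minus WT and SPOC minus WT share the WT libraries.

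The total signal over Phf6 was 318.8 and 322.3 in induced Spen clones and 303.0 and 324.3 in uninduced ones. It was 419.9 and 456.3 in SPOC libraries filed as induced and 320.4 and 338.0 in those filed as uninduced. In WT it was 520.1, 508.1 and 539.8 with induction and 335.0, 309.2 and 312.5 without. Spen minus WT was -0.68 ± 0.14 (adjusted p = 9.64e-06). SPOC minus WT was -0.30 ± 0.14 (adjusted p = 0.177, and 0.0223 with the replicate block), and Spen minus SPOC was -0.38 ± 0.15 (adjusted p = 0.0974, 0.00699 with the block and 0.0248 without WT replicate 3).

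Phf8 could be read only in the signal of both alleles together. The total was 246.0 and 258.5 in induced Spen clones and 227.7 and 229.4 in uninduced ones. It was 356.3 and 433.3 in SPOC libraries filed as induced and 230.7 and 244.5 in those filed as uninduced. In WT it was 436.8, 479.8 and 547.7 with induction and 226.0, 232.6 and 243.6 without. Induced and uninduced libraries did not overlap in any genotype, as in 95.7% of windows in Spen clones, 79.1% in SPOC clones and 99.1% in WT. The rise was 1.05 ± 0.09 in WT (adjusted p = 1.89e-31) and 0.73 ± 0.11 in SPOC clones (adjusted p = 8.41e-11), and the Spen change of 0.15 ± 0.11 did not pass (95% interval -0.07 to 0.36, adjusted p = 0.208). With inputs subtracted and WT replicate 3 left out the Spen change was 0.27 and passed (adjusted p = 0.0133). Centred on the median window it was -0.40, lower than the rest of X (adjusted p = 6.8e-05), and the SPOC change was 0.14 and did not pass (0.0661).

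The Spen minus WT difference at Phf8, -0.91 ± 0.14 (adjusted p = 2.57e-09), was the most negative of the 5 members, and it kept its call without any single replicate. SPOC minus WT was -0.33 ± 0.14 and did not pass (adjusted p = 0.147, and 0.0133 with the replicate block). Spen minus SPOC was -0.58 ± 0.15 (adjusted p = 0.00471), among 9.12% of windows called lower, and it lost the call without Spen clone C3 (-0.55, adjusted p = 0.0877), Spen clone D4 (-0.61, 0.099) or SPOC clone H1 (-0.48, 0.115).

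**Figure D3:**
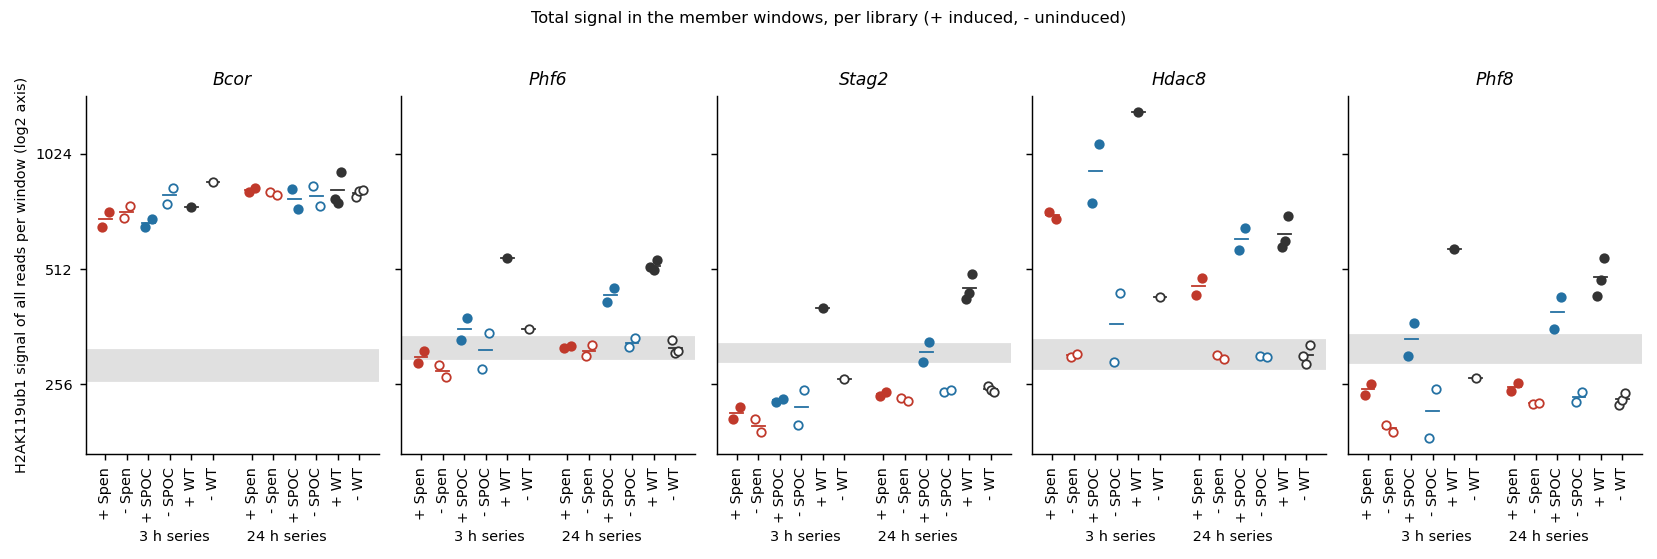
H2AK119ub1 signal of all reads (deposited unit, log2 axis) in the 5 member windows, 1 point per library, with induced (+, filled) left of uninduced (-, open), lines at group means and grey bands over the 12 inputs. SPOC states of the 24 h series follow the file names. Bcor stands at 660.5 to 920.6 in every library, above its inputs, and Phf8 in induced Spen clones of the 24 h series (246.0 and 258.5) stays near its uninduced level.

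Centring each library on its median window asks where a member stands relative to the rest of X. Over all windows, the median of Spen minus WT was -0.16 before centring and 0.17 after it, and the median change of all windows in WT was 0.96 before centring and -0.02 after it. Relative to the other windows, Bcor fell in each genotype, by 0.68 ± 0.09 in Spen clones, 0.68 ± 0.09 in SPOC clones and 0.56 ± 0.08 in WT, where 30.0%, 23.5% and 31.2% of windows were lower. Hdac8 rose in each, by 0.42 ± 0.13, 0.68 ± 0.13 and 0.53 ± 0.10, where 32.6%, 28.3% and 26.9% of windows were higher. Phf6 fell by 0.62 ± 0.11 and Stag2 by 0.30 ± 0.12 in Spen clones, and neither passed the test in SPOC clones or WT.

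After centring, Spen minus WT stayed below 0 past the test for Phf6 (-0.65 ± 0.14, adjusted p = 0.00102) and Stag2 (-0.52 ± 0.16, adjusted p = 0.0106), beside 19.5% of windows called lower and 33.7% higher. With inputs subtracted and WT replicate 3 left out, both calls were lost at -0.70 for Phf6 (adjusted p = 0.0662) and -0.64 for Stag2 (0.321). The Stag2 call was also lost without Spen clone D4 (-0.31, adjusted p = 0.167) or WT replicate 2 (-0.41, 0.066). Bcor (-0.11 ± 0.12) and Hdac8 (-0.11 ± 0.16) did not pass. Phf6 was also lower in Spen clones than in SPOC clones (-0.60 ± 0.15, adjusted p = 0.00626), beside 14.2% of windows (17.3% were higher), and lost that call without SPOC clone E7 (-0.48, adjusted p = 0.0745). For SPOC minus WT limma called 0 of 4 members, beside 3.4% of windows lower and 1.42% higher, with 1 member at an unadjusted p under 0.05, Stag2 at -0.50 ± 0.16 (adjusted p = 0.0727), and it passed without either Spen clone (adjusted p = 0.0426), which enter this comparison only through the shared estimate of the spread.

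The 3 h series, in which all genotypes were handled on 1 day, gave the same order of members within WT at the ends, with Hdac8 highest and Bcor lowest. In WT the ratio rose at Hdac8, Phf6 (1.25 ± 0.29) and Stag2 (0.87 ± 0.29), beside 79.6% of windows, and Bcor was 0.17 ± 0.29. In Spen clones it rose at Hdac8 alone, beside 43.9% of windows, with 0.32 ± 0.21 at Phf6 and 0.36 ± 0.21 at Stag2. With the replicate block these both passed (adjusted p = 0.00486 and 0.0055), so that 3 members were called, and Stag2 also passed without Spen clone C4 (0.55, adjusted p = 0.0335). In SPOC clones Hdac8, Phf6 (0.65 ± 0.21) and Stag2 (0.61 ± 0.21) rose, beside 74.5% of windows, and Phf6 and Stag2 lost the call without either SPOC clone (adjusted p from 0.0732 to 0.175).

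At Phf6 in the 3 h series, genome 2 held 58.9% and 54.2% in induced Spen clones and 52.3% and 49.7% in uninduced ones. It held 61.4% and 62.6% in induced SPOC clones and 49.0% and 52.9% in uninduced ones, and 71.9% in the induced WT library against 51.7% in the uninduced one. The induced WT library stood above the induced clones of both mutants. No difference between genotypes passed at 3 h in the window of a member's midpoint. In the next window, which holds the end of Stag2, Spen minus WT was -1.82 ± 0.36 (adjusted p = 0.000125) and SPOC minus WT -1.39 ± 0.36 (adjusted p = 0.0336). Over the mean of both Stag2 windows, Spen minus WT was -1.16 and passed (adjusted p = 0.0238). Limma called 0 of 4 members for Spen minus WT by the ratio, with 1 at an unadjusted p under 0.05, Phf6 at -0.93 ± 0.36 (adjusted p = 0.0565). With the replicate block, Phf6 (adjusted p = 0.00033) and Stag2 (-0.50, adjusted p = 0.0203) were lower in Spen clones, and Phf6 passed without Spen clone C3 (-0.99, adjusted p = 0.0236) or C4 (-0.87, 0.0298). For SPOC minus WT limma called 0 of 4, with 0 at an unadjusted p under 0.05, and Phf6 at -0.60 ± 0.36 passed with the block (adjusted p = 0.00996). After centring, limma called 0 of 4 for Spen minus WT, with 2 at an unadjusted p under 0.05, Bcor at 0.56 ± 0.18 (adjusted p = 0.0988) among them, which passed with the block (adjusted p = 0.0187) and without either SPOC clone (0.0378). All windows had 13.6% lower by the ratio for Spen minus WT and 0.283% for SPOC minus WT, and after centring 1.7% higher and 0.85% lower for Spen minus WT.

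The Phf8 total at 3 h was 240.7 and 256.8 in induced Spen clones and 200.1 and 193.0 in uninduced ones. It was 303.0 and 370.0 in induced SPOC clones and 185.6 and 249.9 in uninduced ones, and 577.9 in the induced WT library against 266.3 in the uninduced one. The change was 0.34 ± 0.22 in Spen clones (adjusted p = 0.25, and 0.00018 with the replicate block), 0.64 ± 0.22 in SPOC clones (adjusted p = 0.00982) and 1.12 ± 0.31 in WT (adjusted p = 0.00171). The SPOC call was lost without either Spen clone (adjusted p = 0.081), and the Spen change passed without either SPOC clone (adjusted p = 0.000607), through the shared spread. Spen minus WT was -0.78 ± 0.38 (adjusted p = 0.507, and 4e-06 with the block), and it passed without either SPOC clone (adjusted p = 3.07e-05). By total signal 2 of 5 members rose in WT and in SPOC clones, Hdac8 and Phf8, beside 58.6% and 60.1% of windows, and Hdac8 alone in Spen clones, beside 19.4%. Without Spen clone C3 or C4 the Hdac8 call was lost (1.17 and 1.25, adjusted p = 0.375 and 0.552). By total signal limma called 0 of 5 members for Spen minus WT, with 1 at an unadjusted p under 0.05, and 0 of 5 for SPOC minus WT, with 0 at an unadjusted p under 0.05. Over all 669 windows it called 0 in both comparisons, so these counts do not set the members apart. With the replicate block, Spen minus WT passed for Hdac8 (-0.39, adjusted p = 0.018), Phf6 (-0.50, 0.00279) and Stag2 (-0.50, 0.00261), and SPOC minus WT for Phf6 (-0.43, 0.0309), Stag2 (-0.54, 0.00533) and Phf8 (-0.48, 0.0141). The SPOC change of Phf6 (0.20, adjusted p = 0.0272) passed with the block too, as did the WT changes of Phf6 (0.62) and Stag2 (0.61). The block fits the 1 WT pair exactly, so its calls on WT, or against WT, take their spread from the mutant pairs alone. How many of all windows passed with it is not given here, so its calls are not particular to the members.

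Flanking windows show how local each value is. Bcor had the lowest WT change of its 9 windows at 24 h, 0.41 against 0.62 to 1.30 in the 8 around it, which were all called higher. The order held at 24 h in Spen clones (-0.03 against 0.06 to 0.49) and in SPOC clones (0.04 against 0.25 to 0.63). At 3 h Bcor was again lowest in WT and in SPOC clones, but 2 of its 8 flanking windows lay below it in Spen clones. On the side toward Xist, the windows with Med14 (a Mediator subunit gene), and Usp9x (a deubiquitinase gene), rose by 1.16 and 1.30 in WT, with 0.22 and 0.06 in Spen clones. Their Spen minus WT differences were -0.95 and -1.24.

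Around Hdac8 the Spen change split by side. The window with Phka1, which holds the start of Hdac8, had 1.26 in Spen clones and 1.24 in WT, and the next 2 toward Xist had 1.37 and 0.98 in Spen clones and 1.21 and 1.17 in WT. The last one, with Tsx, Chic1 and Cdx4, had 0.28 in Spen clones and 1.48 in WT. Only protein-coding genes were placed in windows, so Xist, a noncoding gene, is not named in any of them. Away from Xist, the window with Rps4x and Pin4 had 0.29 in Spen clones and 1.23 in WT, that with Ogt and Taf1 had 0.20 and 1.23, and that with Med12, Zmym3 and Nono had 0.04 and 1.31. Of the 8 flanking windows 8 were called higher in WT and 3 in Spen clones, and 5 had a Spen minus WT difference called lower. Hdac8 had the highest change of its 9 windows in WT and in SPOC clones.

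At 24 h Stag2 stood in a short dip of the Spen profile. Its neighbours, with Thoc2 (an mRNA export gene) and Tex13d, had 0.19 and -0.06 in Spen clones against 1.45 and 1.06 in WT. The windows farther out ran from 0.63 to 1.02 in Spen clones, those with Sh2d1a and Tenm1 at 0.93 and 0.82, and were called higher. One flanking window of Stag2 failed the filter on low signal, which left 7. At 3 h the Spen change of Stag2 (0.36) lay above 5 of these 7, which ran from -0.09 to 0.74. Around Phf6 the Spen change ran from 0.04 to 0.59 and the WT change from 0.59 to 1.36, and 6 of 8 windows were lower in Spen clones, those with Hprt, Gpc3 and Gpc4 among them (-0.84, -1.07 and -0.70). All 8 windows around Phf8, those with Huwe1 (a ubiquitin ligase gene), Smc1a (cohesin) and Kdm5c (a demethylase gene) among them, had a lower total signal change in Spen clones than in WT, by -1.15 to -0.76.

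**Figure D4:**
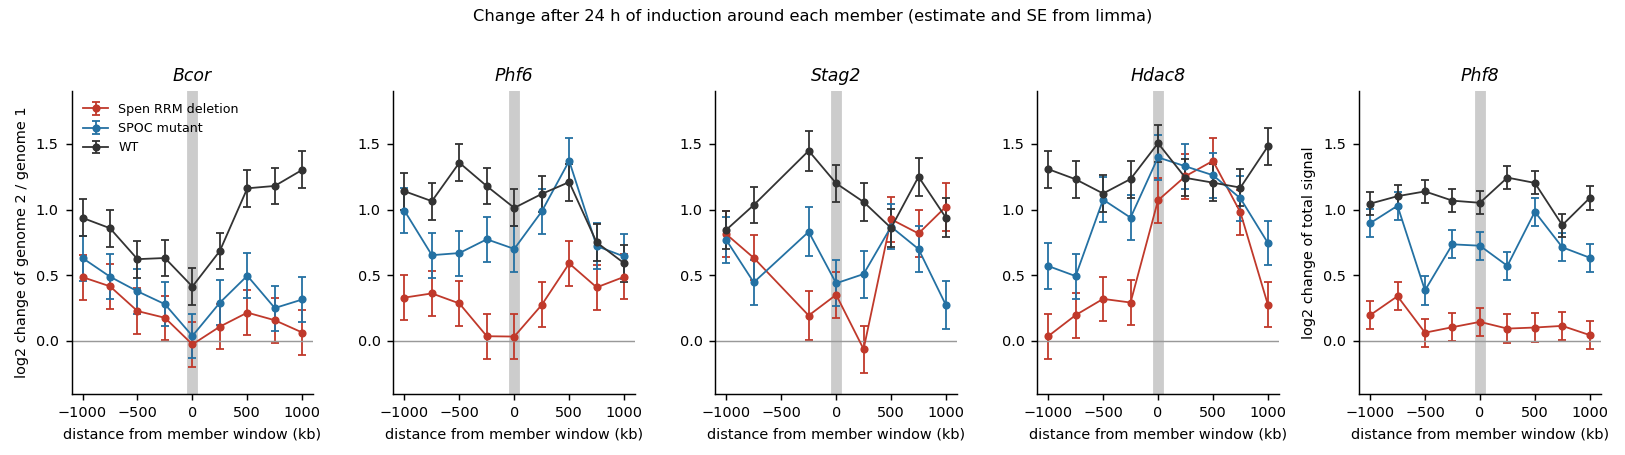
Log2 change after 24 h of induction (y axis, limma estimate and SE) in each member window (0 kb) and up to 4 windows on either side (x axis, kb), by genotype, with SPOC states from the file names. The first 4 panels give the ratio of genome 2 to genome 1, and the last gives the total signal for Phf8. Bcor is the low point of its region in each genotype, and around Hdac8 the Spen line is near that of WT in the first 3 windows on the right and below it on the left.

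The members were set beside 28 other X-linked chromatin regulator genes, listed with earlier results of these data known. Of these, 16 lie in 14 windows with allelic signal. Those windows hold a median of 4 protein-coding genes, against 1.5 in the 4 member windows and 1 in all allelic windows. In WT 14 of 14 rose at 24 h, in Spen clones 3 of 14 (Nap1l2, Hmgb3 and Ezhip) and in SPOC clones 12 of 14, all but Kdm6a and Suv39h1, 2 genes named after their values were seen. Over all windows the shares called higher were 94.6% in WT, 70.8% in Spen clones and 83.3% in SPOC clones. The median change of the 14 was 0.19 in Spen clones, 0.59 in SPOC clones and 1.16 in WT, while all windows had medians of 0.68, 0.71 and 0.96. By total signal the Spen minus WT difference was called lower in 19 of 26, beside 34.7% of all windows.

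After centring, Spen minus WT was called lower in 10 of 14 and higher in 0, with a median of -0.63 beside 0.17 over all windows, of which 19.5% were lower and 33.7% higher. Among the lowest were the windows of Zmym3 and Med12 (-0.95 ± 0.14) and that of Jade3 (-0.94 ± 0.11). The highest, none of which passed, were those of Nap1l2 (0.14 ± 0.15), Hmgb3 (0.09 ± 0.12) and Ezhip (0.04 ± 0.11). For SPOC minus WT the lowest were those of Hcfc1 (-0.61 ± 0.12), Suv39h1 (-0.59 ± 0.13) and Jade3 (-0.51 ± 0.11), and among the highest, again past no test, were those of Hmgb3 (0.20 ± 0.12) and Nap1l2 (0.18 ± 0.15). The list was not tested as a set.

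**Figure D5:**
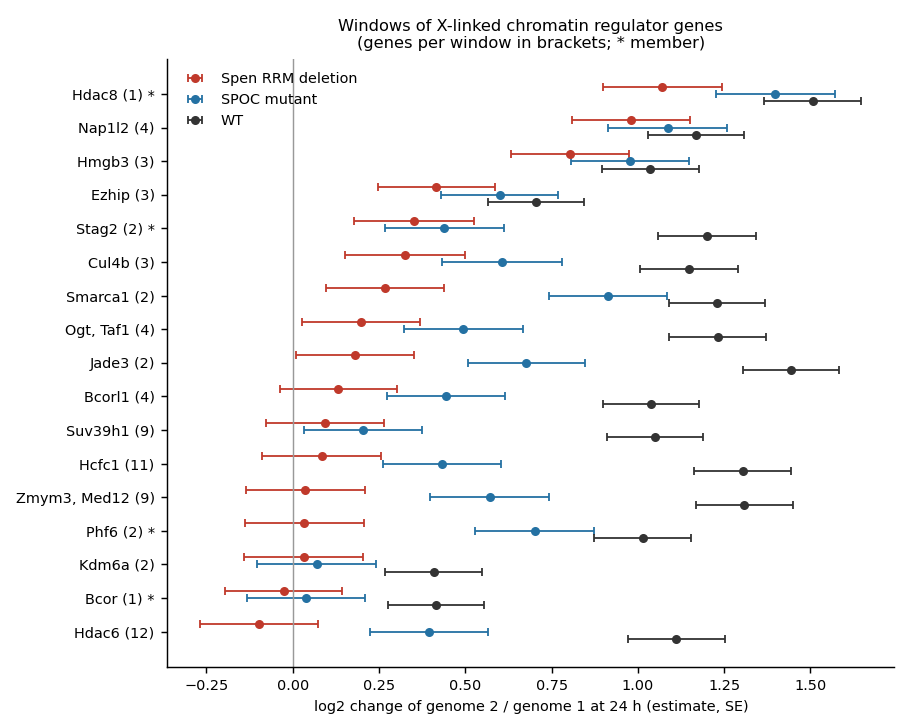
Log2 change of the ratio of genome 2 to genome 1 at 24 h (x axis, limma estimate and SE) in 17 of the 18 windows of X-linked chromatin regulator genes with allelic signal (rows, sorted by the Spen change), by genotype, with SPOC states from the file names. Hdac8, Nap1l2 and Hmgb3 have the highest Spen changes (1.07, 0.98 and 0.80), and Bcor and Kdm6a the lowest WT changes (0.41 and 0.41).

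Across the 24 H2AK119ub1 libraries, the windows whose centred ratio followed a member most closely were found by Pearson correlation, given as a description. Bcor was followed most closely by the window of Dynlt3 and H2al1o (0.96), that of Dipk2b (0.95) and a window from 17750001 with no protein-coding gene (0.94). Hdac8 was followed by the window of Tmem28 (0.91) and that of Awat2 and Otud6a (0.89). Stag2 (0.81, the window with Uba1 and Cdk16, then 0.79 with Araf and Timp1 and 0.78 with Cask) and Phf6 (0.75, with Zdhhc9 and Apln, then 0.72 with Foxp3 and 0.72 with Pgrmc1) had looser matches. For Phf8, by total signal, the closest was the window of Klf8 and Ubqln2 (0.93). Between members, the centred ratios of Bcor and Hdac8 correlated at -0.71, and those of Phf6 and Stag2 had the highest correlation (0.48). Before centring, the ratios of Bcor and Hdac8 both rose in WT at 24 h (0.41 and 1.51). The negative value thus describes their standing relative to the median window. The windows of a library share its scaling, state and genotype.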

How the data were processed

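H2AK119ub1 and input DNA were read from the authors' deposited signal, a normalized coverage summed by them per 250 kb window of X, in 1 file of all reads and 2 of genome 1 and genome 2 per library. Per the submitters' processing notes, the tools were bedtools, Picard and Bowtie2 2.2.6 and the build mm10; their roles, the scaling factor and the read numbers are not given in the sources used here. Drosophila chromatin was added to most 24 h samples, and was not used here; whether the deposited scale uses it is not given in the sources used here. The ratio was log2 of genome 2 over genome 1 signal and the total was log2 of the signal, each after adding 1% of that file's median window. Windows averaging at least 10% of the median window were kept, 353 of 414 allelic and 669 of 685 total ones. The pseudocount and the windows' 250 kb size understate changes of low or narrow signal.

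Changes, and their differences between genotypes, were tested two-sided with limma 3.58.1 in R 4.3.3, with 1 fit per series over all windows and Benjamini-Hochberg adjustment at 0.05, a step tested on simulated data. Errors are SE from the fit. SPOC libraries of the 24 h series were grouped by file name, not by title. Induced and uninduced libraries pair by WT number, which the labels tie to an occasion, and by clone, each its own line. Deviations from the group means correlated at -0.01, -0.10 and 0.03 in WT replicates, -0.00082 in Spen clones and 0.12 in SPOC clones at 24 h, and at 0.16 and 0.31 in Spen and SPOC clones at 3 h. The replicate block is given where it changes a call, without the share of all windows that it called. At 3 h it fits the 1 WT pair exactly, so calls there that involve WT take their spread from the mutant pairs alone. Clones are separate cell lines and WT replicates separate occasions, and limma pools the spread between these over windows. By total signal at 24 h the SE of the WT change was 0.088 in each member, and by the ratio at 3 h 0.29. By the ratio at 24 h it was 0.139 at Bcor and 0.142 at Stag2. The p-values thus measure a spread nearly common to the member windows, not that of 1 member between clones or occasions.

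Named were the 5 members, 4 windows on each side, every window a member touches, the 3 highest and 3 lowest other regulators after centring, and the 3 windows most correlated with each member; some windows this names are not reported here. Members and lists were chosen with earlier results of these data known. Genes were placed by midpoint from RefSeq genes of GRCm38.p6, where all 33 listed regulators were found. Alternatives were other pseudocounts, no filter, the replicate block, neighbouring windows, titled SPOC states, subtraction of inputs, other centring and leaving out each replicate. Tables were handled in Python 3.11.15 with pandas 2.3.3 and numpy 2.4.6, and plots drawn with matplotlib 3.10.9.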

Additional observations from a re-analysis of the deposited data

Results flagged for a closer look

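In the 24 h series 12 differences between genotypes passed limma's test of the difference itself (log2, SE). For Phf6, Spen minus WT was -0.98 ± 0.22 by the ratio, -0.65 ± 0.14 by the centred ratio and -0.68 ± 0.14 by total signal, and Spen minus SPOC was -0.60 ± 0.15 by the centred ratio. For Stag2, Spen minus WT was -0.85 ± 0.22, -0.52 ± 0.16 and -0.82 ± 0.14 on these 3 scales, and SPOC minus WT was -0.76 ± 0.22 by the ratio and -0.53 ± 0.14 by total signal. For Phf8, by total signal, Spen minus WT was -0.91 ± 0.14 and Spen minus SPOC -0.58 ± 0.15. For Hdac8, by total signal, Spen minus WT was -0.43 ± 0.14. Those with SPOC rest on the states given by the file names. Some of these calls were lost when 1 replicate was left out. They were Hdac8, both SPOC minus WT differences of Stag2, and Spen minus SPOC of Phf6 and of Phf8. Spen minus WT of Stag2 was lost too by the ratio and the centred ratio. The others kept their calls. Beyond this, groups of 2 or 3 libraries were not checked for single outlying values.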

How the results depend on the processing

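With the titled states of the SPOC libraries, SPOC changes at 24 h became -1.40 for the Hdac8 ratio, -0.70 for Phf6 and -0.44 for Stag2, and -1.02, -0.41, -0.34 and -0.73 for the total signal of Hdac8, Phf6, Stag2 and Phf8. Spen minus SPOC became 2.47, 0.73 and 0.79 for the ratio of Hdac8, Phf6 and Stag2, and 1.63, 0.45, 0.39 and 0.87 for the total signal of Hdac8, Phf6, Stag2 and Phf8. SPOC minus WT became -1.78 for the total signal of Phf8. After centring, SPOC minus WT became 1.25 for Bcor and -1.21 for Hdac8, and Spen minus SPOC -1.36 for Bcor and 1.10 for Hdac8. The members called then were 0 higher and 3 lower for the SPOC change, 4 lower for SPOC minus WT (1 higher and 1 lower after centring), and 3 higher for Spen minus SPOC (1 higher and 3 lower after centring). These follow from the exchange of states.

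Centring the total signal on the median window gave changes at 24 h of -0.51 in Spen clones, -0.62 in SPOC clones and -0.72 in WT for Bcor, all passing as lower, 0.07 in Spen clones for Hdac8, with the call lost, -0.50 in Spen clones, -0.18 in SPOC clones and -0.025 in WT for Phf6, -0.49 in Spen clones and -0.25 in SPOC clones for Stag2, and -0.40 in Spen clones for Phf8, with 0.14 in SPOC clones no longer passing. At 3 h it gave -0.50 in Spen clones, -0.85 in SPOC clones and -1.06 in WT for Bcor, all passing, -0.31 in Spen clones and -0.43 in SPOC clones for Phf6, -0.33 and -0.56 for Stag2, and 0.013 for the SPOC change of Phf8.

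The replicate block took the members called at 3 h to 3 higher for the Spen change, 2 lower for Spen minus WT, 1 higher after centring (Bcor, 0.56), and 1 lower for SPOC minus WT. With it Phf8 passed in SPOC minus WT (-0.33 at 24 h, -0.48 at 3 h), in the 3 h Spen change (0.34) and in 3 h Spen minus WT (-0.78). It also brought in the total signal of Phf6 and Stag2 in several 3 h comparisons. The share of all windows called with the block is not given here, so these calls are not set against the rest of X.

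Dividing by the spread over windows left 1 member lower in centred Spen minus WT and 0 in Spen minus SPOC. Subtracting each library's input, without WT replicate 3, left 1 in Spen minus WT by the ratio (Stag2 lost at -0.79) and 0 after centring (Phf6 -0.70, Stag2 -0.64), 0 in SPOC minus WT (Stag2 -0.68) and 0 in centred Spen minus SPOC (Phf6 -0.52), and the Phf8 Spen change passed at 0.27. SPOC minus WT at 24 h had 0 with no filter, with touched windows and with neighbours averaged. Averaging neighbours gave 1 lower in Spen minus SPOC, 2 in 3 h Spen minus WT (1 with touched windows, Stag2 at -1.16) and a Phf8 SPOC minus WT of -0.44 that passed. A pseudocount of 5% gave 2 in the 24 h Spen change. The cause of these was not tested, and the shares of all windows called under these settings are not given here.

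Leaving out 1 replicate at a time, the members called ran from 1 to 3 for the SPOC change at 3 h, 1 to 2 for the Spen change at either time, 1 to 3 for Spen minus WT at 24 h and 1 to 2 after centring, and 0 to 1 for SPOC minus WT at 24 h on either scale, for Spen minus SPOC on either scale and for Spen minus WT at 3 h on either scale. Phf8 values ran from 0.57 to 0.71 for the SPOC change, 0.27 to 0.41 for the Spen change, -0.55 to -0.41 for SPOC minus WT and -0.85 to -0.70 for Spen minus WT at 3 h, and from -0.68 to -0.48 for Spen minus SPOC at 24 h.

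Read numbers are unknown, so counting error could not be set apart, and the low allelic signal of Stag2 limits its shares. With 1 WT library per state at 3 h, differences from WT rest on 1 pair.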
